A study of Mus musculus with 6 samples.

Results

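The 28 genes described here make cholesterol or control, move and store it, and they were chosen as a named list of cholesterol synthesis and SREBP2 pathway genes. All 28 were matched by versioned Ensembl identifier among the 55450 genes counted in the hepatocyte libraries, and all 28 were among the 17037 genes tested. The list holds 20 enzymes of the route from acetyl-CoA to cholesterol, 4 genes that control the transcription factor SREBP2, and 4 genes of cholesterol transport and esterification. The rule names genes and no measured value, although the list was drawn up with earlier results of these data known. Some genes of the pathway are not part of it, so the counts below are counts over the list.

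Bulk RNA-Seq was done on primary hepatocytes of male C57BL/6 mice on normal diet, aged 10 to 12 weeks by the labels, with 3 libraries from undamaged liver (0 h) and 3 libraries from regenerating liver 48 h after partial hepatectomy (PHx), the surgical removal of much of the liver. The age range in the labels differs from that in the methods of the paper. The mice carried no transgene or deletion, each library came from a separate mouse, and the hepatocytes were freed by a 2-step collagenase perfusion. The 0 h mice had no sham operation, so the effects of PHx cannot be told apart from those of anaesthesia and surgery. The 0 h libraries held 31419443 to 36346220 gene counts each and the 48 h libraries 31684152 to 33093006, and within each time point every pair of libraries differed by more than sampling noise.

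Cholesterol is built in the endoplasmic reticulum from acetyl-CoA by way of mevalonate, farnesyl diphosphate, squalene and lanosterol, and the liver is a main site of this synthesis. SREBP2 switches on the genes of the route. When sterols are plentiful, INSIG proteins hold SREBP2 and its escort SCAP in the endoplasmic reticulum. When sterols run low, SCAP carries SREBP2 to the Golgi, where proteases release the part that enters the nucleus. Dividing cells need sterols for new membranes, and mevalonate also feeds protein prenylation, dolichol and ubiquinone.

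In regenerating liver, most genes that control SREBP2 or handle finished cholesterol were lower than in undamaged liver, while few enzymes of the route passed the test. With edgeR's quasi-likelihood test and an adjusted p under 0.05, 1 of the 28 genes was higher at 48 h (Lbr) and 9 were lower (Fdps, Tm7sf2, Sc5d, Scap, Insig1, Insig2, Npc1, Npc2 and Soat2). In the same test 40.7% of all genes were called, 21.4% as higher and 19.3% as lower. The 10 calls among 28 genes are therefore near the share over all genes, with fewer higher and more lower. Of the 20 synthesis enzymes, 1 was higher, 3 were lower and 16 did not pass the test, with a median log2 fold change of 0.0046. Of the 8 control, transport and esterification genes, 0 were higher and 6 were lower, with a median log2 fold change of -0.72 (all genes tested, -0.0033). All 48 h libraries lay above all 0 h libraries for 1 gene of the 28 and below them for 10, against 27.8% and 24.97% of all genes tested. The count of lower genes depended on single libraries. It was 5 without 48 h replicate 2, 6 without 0 h replicate 3 or 48 h replicate 3, and 11 without 48 h replicate 1, and the count of higher genes was 4 without 48 h replicate 3.

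**Figure D1:**
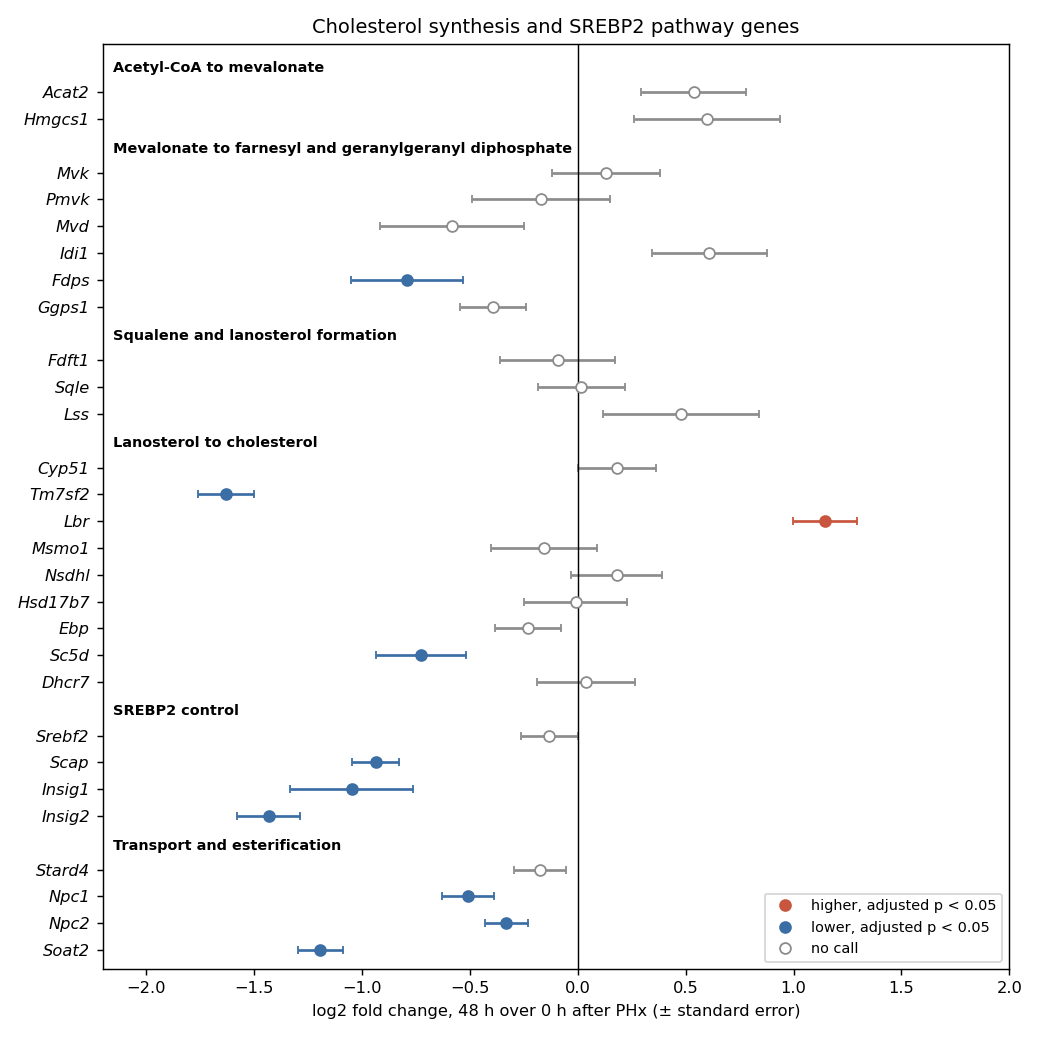
Log2 fold change of each of the 28 genes, 48 h over 0 h after PHx, from edgeR, with genes grouped by role and bars of 1 standard error; filled points passed an adjusted p under 0.05. Lbr is the one gene called higher, at 1.15, and the 8 genes of SREBP2 control and of transport and esterification lie left of 0, although Srebf2 and Stard4, neither of them called, moved right of 0 with library size as the only scaling.

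The clearest change lay at a single step of the route. After lanosterol is demethylated, a ring double bond is reduced by either of a pair of enzymes, TM7SF2 of the endoplasmic reticulum and the lamin B receptor LBR of the inner nuclear membrane, which also binds lamins and chromatin. Tm7sf2 (ENSMUSG00000024799.16, chr19:6062821-6068373, minus strand) measured 113, 110 and 125 CPM (counts scaled to the same total in every library and normalized by TMM) in the 0 h libraries and 41.8, 39.5 and 31.01 CPM at 48 h. All 3 libraries of regenerating liver lay far below all 3 of undamaged liver. Tm7sf2 was 3.09-fold lower (log2 fold change -1.63, SE 0.131, edgeR adjusted p = 6.67e-06). Lbr (ENSMUSG00000004880.11, chr1:181815335-181843046, minus strand) measured 13.0, 18.0 and 16.9 CPM at 0 h and 40.5, 34.4 and 31.2 CPM at 48 h. Here every 48 h library lay above every 0 h library, and Lbr was 2.21-fold higher (log2 fold change 1.15, SE 0.147, edgeR adjusted p = 0.000168). Both calls held in all 16 alternative fits.

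Levels of different genes can be compared only per length, and for this counts were divided by the length of each gene's merged exons and scaled to the same total in every library (TPM). On this scale Tm7sf2 stood at 68.3 ± 2.79 TPM (SD, n = 3) in undamaged liver and Lbr at 8.73 ± 1.505 TPM. In regenerating liver Tm7sf2 stood at 26.4 ± 3.15 TPM (SD, n = 3) and Lbr at 23.0 ± 2.12 TPM. The ratio of Tm7sf2 to Lbr was 9.38, 6.60 and 7.97 in the 0 h libraries and 1.12, 1.24 and 1.07 in the 48 h libraries. Tm7sf2 thus stood several-fold above Lbr in every library of undamaged liver and close to it in every library of regenerating liver. Of the exon length of Tm7sf2, 12.1% is shared with a gene on the same strand (Vps51), and of that of Lbr 9.24% is shared with a gene on the opposite strand, and reads there may not have been counted.

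The first enzymes of the route ran higher in 48 h means, but not beyond the spread between libraries. Acat2 encodes the cytosolic thiolase that joins acetyl-CoA units, and it measured 38.6, 25.6 and 43.2 CPM at 0 h and 71.6, 48.2 and 36.2 CPM at 48 h. The 48 h library with the least Acat2 lay within the range of the 0 h libraries (log2 fold change 0.54, SE 0.244, edgeR adjusted p = 0.105). Hmgcs1, the cytosolic HMG-CoA synthase on the way to mevalonate, measured 359, 216 and 390 CPM at 0 h and 780, 405 and 278 CPM at 48 h. The groups overlapped, and the 48 h libraries differed among themselves by more than the group means did (log2 fold change 0.60, SE 0.338, edgeR adjusted p = 0.184). Without 48 h replicate 3, both passed the test, with log2 fold changes of 0.75 for Acat2 (adjusted p = 0.0227) and 0.89 for Hmgcs1 (adjusted p = 0.0368). Without 48 h replicate 1, the log2 fold changes were 0.24 for Acat2 (adjusted p = 0.410) and 0.088 for Hmgcs1 (adjusted p = 0.807).

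Acat2 has a mitochondrial counterpart, the thiolase Acat1. The ratio of Acat2 to Acat1 in TPM was 0.315, 0.288 and 0.325 at 0 h and 1.22, 0.639 and 0.532 at 48 h. All 3 ratios of regenerating liver lay above those of undamaged liver, while of the pair only Acat1 was itself called. Acat1 fell from 181, 131 and 196 CPM to 87.1, 112 and 100 CPM (log2 fold change -0.77, SE 0.162, edgeR adjusted p = 0.00359).

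Between mevalonate and the long isoprenoid chains, 1 of 6 genes passed the test (all genes tested, 40.7%). Fdps (ENSMUSG00000059743.12, chr3:89093588-89101959, minus strand) encodes farnesyl diphosphate synthase, which stands where the route branches to sterols and to prenylation. It measured 22.3, 17.4 and 18.9 CPM at 0 h and 17.3, 8.73 and 7.88 CPM at 48 h. The highest 48 h library lay just under the lowest 0 h library, and Fdps was 1.73-fold lower (log2 fold change -0.79, SE 0.259, edgeR adjusted p = 0.0322). The call was lost without 0 h replicate 1, 0 h replicate 3, 48 h replicate 2 or 48 h replicate 3 (adjusted p from 0.0620 to 0.122) and with library size as the only scaling (adjusted p = 0.0575), and without 48 h replicate 1 the log2 fold change was -1.23. Of the exon length of Fdps, 26.7% is shared with an annotated gene on the same strand (Gm43738).

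Ggps1, which extends farnesyl to geranylgeranyl diphosphate, measured 9.87, 11.3 and 8.07 CPM at 0 h and 7.84, 7.10 and 7.37 CPM at 48 h. Its 48 h libraries all lay below its 0 h libraries, yet it did not pass the test (log2 fold change -0.39, SE 0.155, edgeR adjusted p = 0.0665), and it passed without 0 h replicate 3 (log2 fold change -0.52, adjusted p = 0.0303). Idi1, the isomerase that makes the starter unit for chain growth, measured 37.1, 26.1 and 40.1 CPM at 0 h and 78.0, 46.0 and 33.7 CPM at 48 h. It did not pass either, its groups overlapping (log2 fold change 0.61, SE 0.268, edgeR adjusted p = 0.0940), and passed without 48 h replicate 3 (log2 fold change 0.86, adjusted p = 0.0144) but stood at 0.21 without 48 h replicate 1 (adjusted p = 0.428). The mevalonate kinases and decarboxylase gave no call, with log2 fold changes of 0.13 for Mvk, -0.17 for Pmvk and -0.58 for Mvd. Without 48 h replicate 1, Pmvk had a log2 fold change of -0.68 (adjusted p = 0.0433) and Mvd one of -1.06 (adjusted p = 0.0132). Mvd stood at -0.33 without 48 h replicate 3 (adjusted p = 0.459) and at -0.35 without 0 h replicate 3 (adjusted p = 0.491), and Pmvk at 0.13 without 48 h replicate 3 (adjusted p = 0.717).

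The enzymes that make squalene and close the ring gave no call. Fdft1, squalene synthase, had a log2 fold change of -0.09 (SE 0.265, edgeR adjusted p = 0.806), and 18.3% of its exon length lies opposite another gene (Ctsb). Sqle, the squalene epoxidase that is a slow step of the route, had one of 0.02 (SE 0.201, edgeR adjusted p = 0.952). Lss, lanosterol synthase, measured 109, 76.2 and 102 CPM at 0 h and 232, 101 and 67.3 CPM at 48 h. A single 48 h library thus held the highest Lss level of the 6 and another the lowest (log2 fold change 0.48, SE 0.361, edgeR adjusted p = 0.320). The log2 fold change was -0.19 without 48 h replicate 1 (adjusted p = 0.497) and 0.81 without 48 h replicate 3 (adjusted p = 0.0511).

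Of the 9 genes from lanosterol to cholesterol, 1 was higher and 2 were lower, against 21.4% and 19.3% of all genes tested. Beyond Tm7sf2 and Lbr, 1 of the other 7 was called. Sc5d (ENSMUSG00000032018.14, chr9:42251595-42264256, minus strand) encodes lathosterol oxidase, a desaturase near the end of the route, and measured 962, 868 and 1220 CPM at 0 h and 768, 634 and 443 CPM at 48 h. Every 48 h library lay below every 0 h library, and Sc5d was 1.65-fold lower (log2 fold change -0.73, SE 0.210, edgeR adjusted p = 0.0187). The call was lost without 0 h replicate 3 (log2 fold change -0.58, adjusted p = 0.0745), 48 h replicate 2 (-0.74, adjusted p = 0.0518) or 48 h replicate 3 (-0.53, adjusted p = 0.0512). The other 6 genes had log2 fold changes between -0.23 and 0.18. They were the lanosterol demethylase Cyp51 (0.18), the sterol methyl oxidase Msmo1 (-0.15), the dehydrogenase Nsdhl (0.18), the ketosteroid reductase Hsd17b7 (-0.01), the isomerase Ebp (-0.23) and Dhcr7 (0.04), which reduces dehydrocholesterol to cholesterol. Summed over the 20 enzymes, the route took 2115, 1752 and 2373 TPM at 0 h and 2995, 2192 and 1689 TPM at 48 h, and these groups overlapped.

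Per length, the enzymes differed widely in undamaged liver, from 5.39 ± 1.05 TPM (SD, n = 3) for Ggps1 to 541 ± 82.1 TPM for Sc5d. Ebp followed Sc5d at 264 ± 19.6 TPM and Hmgcs1 stood at 181 ± 48.6 TPM. Hmgcs1 did not differ beyond its spread from Dhcr7 at 163 ± 28 TPM, Cyp51 at 142 ± 7.68 TPM or Fdft1 at 140 ± 41.2 TPM. At the low end Fdps stood at 12.0 ± 1.53 TPM. Insig1, which controls the route, was as abundant as its most abundant enzyme at 541 ± 105 TPM.

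**Figure D2:**
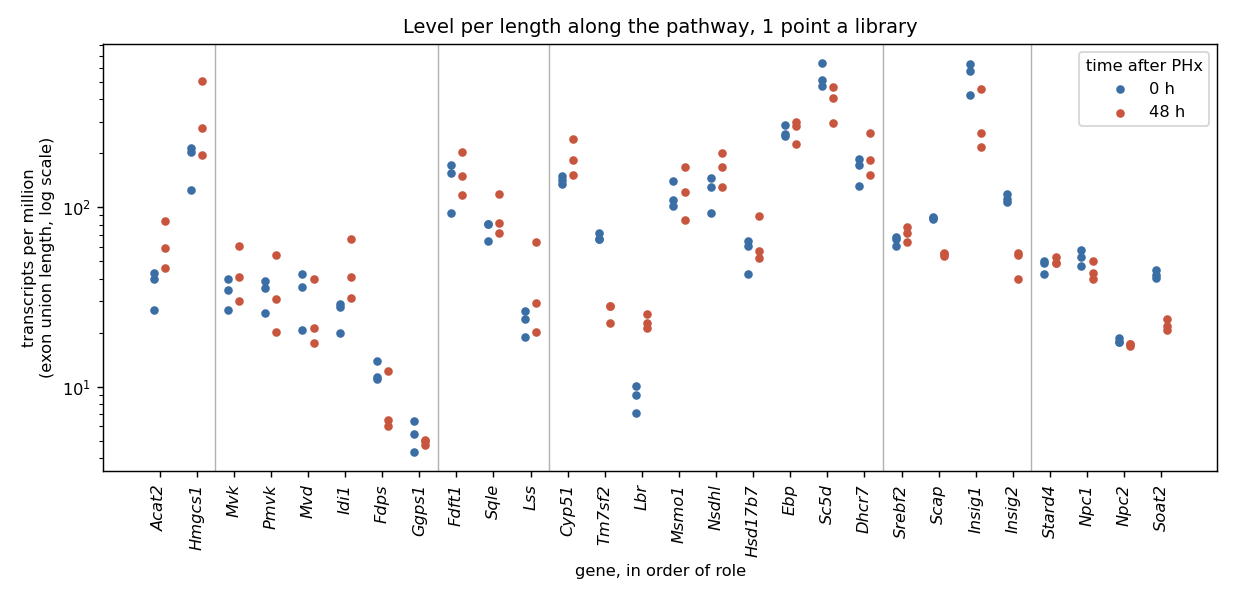
Level of each of the 28 genes per exon length, in TPM on a log axis, with 1 point a library and grey lines between the roles. The points of Tm7sf2 and Lbr lie far apart at 0 h and meet at 48 h, and Sc5d and Insig1 are the most abundant genes of the list at 0 h.

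The gene of the factor itself did not pass the test, while 3 of the 4 SREBP2 control genes were lower (all genes tested, 19.3%). Srebf2, which encodes SREBP2, measured 189, 163 and 190 CPM at 0 h and 187, 165 and 143 CPM at 48 h. The groups overlapped and Srebf2 gave no call (log2 fold change -0.13, SE 0.132, edgeR adjusted p = 0.461). Scap (ENSMUSG00000032485.14, chr9:110333288-110384950, plus strand), the sterol-sensing escort of SREBP2, measured 246, 244 and 260 CPM at 0 h and 139, 127 and 126 CPM at 48 h. Its 2 groups were narrow and well apart, and Scap was 1.91-fold lower (log2 fold change -0.94, SE 0.11, edgeR adjusted p = 9.60e-05).

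Both genes for the INSIG retention proteins were lower as well. Insig1 (ENSMUSG00000045294.11, chr5:28071363-28078662, plus strand), itself an SREBP target, measured 679, 492 and 768 CPM at 0 h and 477, 256 and 207 CPM at 48 h. The highest 48 h library came close to the lowest 0 h library without reaching it, and Insig1 was 2.06-fold lower (log2 fold change -1.05, SE 0.285, edgeR adjusted p = 0.0142). The call was lost without 0 h replicate 3 (adjusted p = 0.0520) or 48 h replicate 2 (adjusted p = 0.0611). Insig2 (ENSMUSG00000003721.14, chr1:121304353-121332589, minus strand), the form that does not depend on SREBP2 for its expression, measured 143, 145 and 163 CPM at 0 h and 64.5, 44.5 and 58.6 CPM at 48 h. All 48 h libraries lay far below all 0 h libraries, and Insig2 was 2.69-fold lower (log2 fold change -1.43, SE 0.146, edgeR adjusted p = 3.58e-05). The ratio of Insig2 to Insig1 in TPM was 0.187, 0.262 and 0.189 in undamaged liver and 0.1205, 0.155 and 0.252 in regenerating liver, so the groups overlapped. The calls of Scap and Insig2 held in all 16 alternative fits, although Scap did not reach a log2 fold change of 1 in size, and 13.2% of the exon length of Scap lies opposite another annotated gene.

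**Figure D3:**
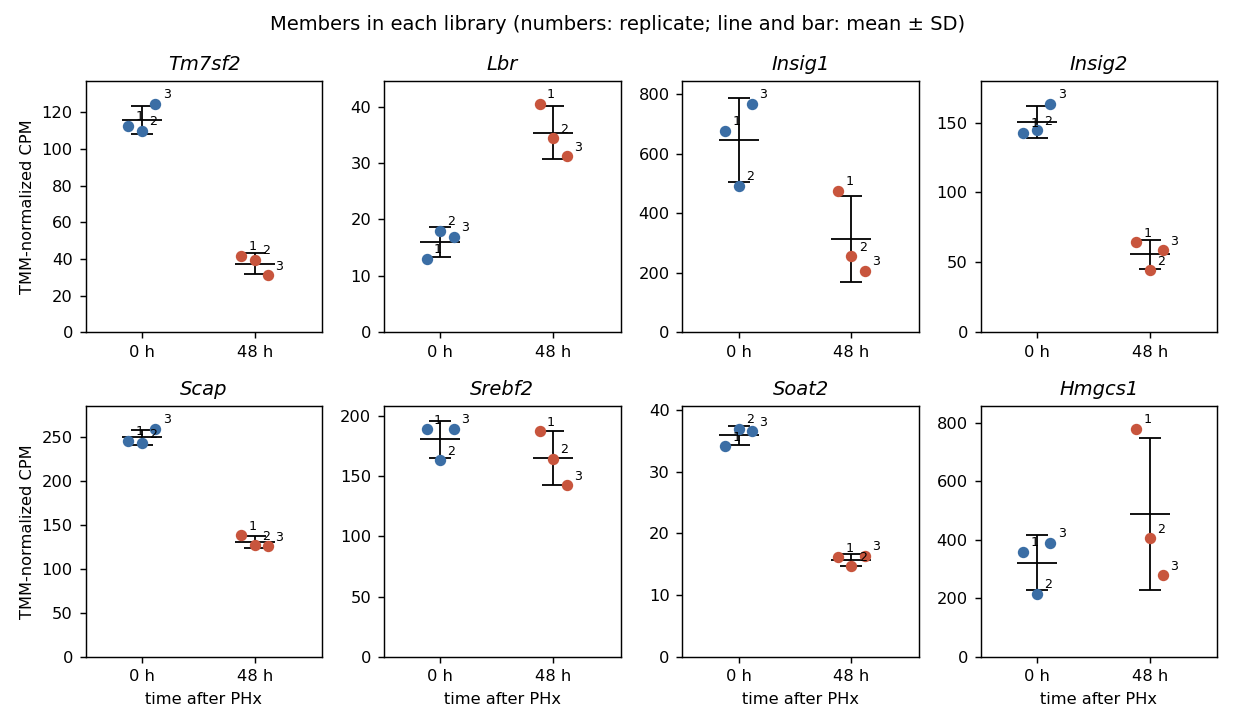
TMM-normalized CPM of 8 genes in each of the 6 libraries, from a baseline of 0, with the replicate number beside each point and lines for the mean and SD. Tm7sf2, Insig1, Insig2, Scap and Soat2 are lower in every 48 h library, Lbr is higher in every 48 h library, and Srebf2 and Hmgcs1 overlap between the time points.

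Of the genes that move and store cholesterol, 3 of 4 were lower (all genes tested, 19.3%). Soat2 (ENSMUSG00000023045.13, chr15:102150526-102163469, plus strand) encodes the enzyme that esterifies cholesterol in hepatocytes for storage and lipoprotein assembly. It measured 34.1, 37.0 and 36.6 CPM at 0 h and 16.1, 14.7 and 16.4 CPM at 48 h. The libraries of a time point lay close together and the groups lay well apart, and Soat2 was 2.28-fold lower (log2 fold change -1.19, SE 0.103, edgeR adjusted p = 1.17e-05), a call that held in all 16 alternative fits. Its paralogue Soat1, the form common in other cell types, stood far lower, and the ratio of Soat2 to Soat1 in TPM was 94.3, 55.3 and 59.1 at 0 h and 39.4, 23.9 and 29.2 at 48 h.

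Npc1 and Npc2 encode the membrane and the soluble protein that together export cholesterol from lysosomes. Npc1 (ENSMUSG00000024413.14) measured 229, 246 and 211 CPM at 0 h and 151, 155 and 175 CPM at 48 h, with no overlap, and was 1.42-fold lower (log2 fold change -0.51, SE 0.119, edgeR adjusted p = 0.00666). Npc2 (ENSMUSG00000021242.9, chr12:84754562-84773152, minus strand) measured 36.8, 35.9 and 40.1 CPM at 0 h and 31.4, 30.0 and 28.4 CPM at 48 h. Its groups did not overlap and it was 1.26-fold lower (log2 fold change -0.33, SE 0.0994, edgeR adjusted p = 0.0227). Both calls were lost with library size as the only scaling (adjusted p = 0.0880 for Npc1 and 0.318 for Npc2), and that of Npc2 also without 0 h replicate 3 (adjusted p = 0.0784), 48 h replicate 2 (adjusted p = 0.0715) or 48 h replicate 3 (adjusted p = 0.0842) and with a replicate block (adjusted p = 0.0606). Stard4, a carrier of cholesterol through the cytosol, gave no call (log2 fold change -0.17, SE 0.1196, edgeR adjusted p = 0.275).

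The synthesis enzymes moved together between libraries of the same time point, a pattern noticed after their values were seen and given as a description. All 20 enzymes were highest, among the 48 h libraries, in replicate 1, and 19 of 20 were lowest in replicate 3, with Ggps1 lowest in replicate 2. Among the 0 h libraries, 17 of 20 were lowest in replicate 2. Both orders were shown by 17 of the 20 enzymes and by 9.47% of all genes tested. Hmgcs1, at 780 CPM in 48 h replicate 1 and 278 CPM in replicate 3, and Lss, at 232 and 67.3 CPM, spanned the widest folds with Pmvk, at 31.3 and 10.7 CPM.

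The spread of the enzymes was accordingly wide. Their median coefficient of variation was 19.8% at 0 h and 33.7% at 48 h, against 10.3% and 8.06% for the 7564 genes whose mean level was 10 CPM or more. For the 8 control, transport and esterification genes it was 7.66% and 8.21%, and 5 of these 8, Insig1 among them, shared the order of the enzymes at both time points. Other values also ran in order across the 48 h replicates 1, 2 and 3. The hepatocyte markers took 6.47%, 5.99% and 5.70% of gene counts, and reads on no gene ran in the opposite direction at 24.3%, 26.7% and 27.9%. At 0 h, where most enzymes were lowest in replicate 2, the hepatocyte markers were instead highest there (8.31%, 10.0% and 8.93% in replicates 1, 2 and 3), and so were reads on no gene (29.3%, 32.7% and 25.1%). The part of these in the pattern was not tested.

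**Figure D4:**
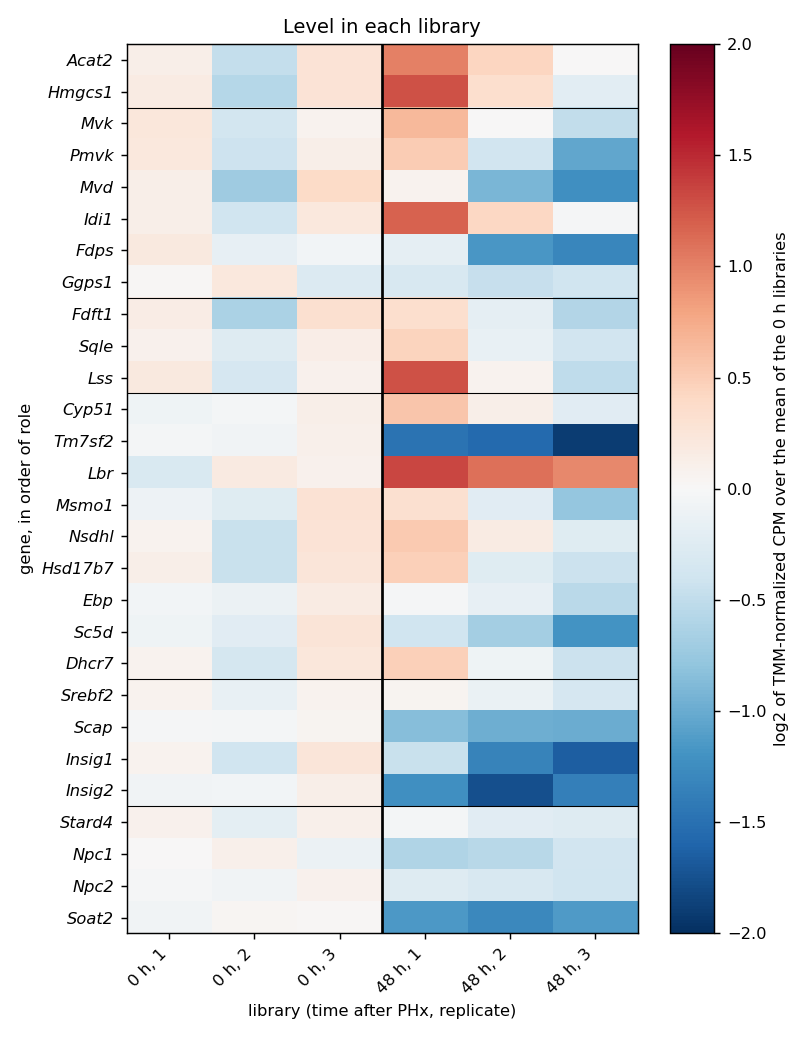
Log2 of TMM-normalized CPM in each library over the mean of the 0 h libraries, for the 28 genes (rows, by role) in the 6 libraries (columns). Among the 48 h columns the enzyme rows are all highest in replicate 1, and Tm7sf2, Scap, Insig2 and Soat2 are low in all 3 columns.

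RefSeq promoter windows on GRCm38.p6, from 250 bases before to 50 after a gene's start, were found for 22 of the 28 genes and searched on both strands. The letters CCAAT, the site of the factor NF-Y, occurred in 20 of the 22 genes (90.9%), against 41.1% of all 27025 genes with a window and 42.7% of the 10954 of these that were tested. The GC box GGGCGG, the core of Sp1 sites, also occurred in 20 of 22, against 38.2% of all genes and 64.4% of those tested. The E-box CACGTG occurred in 5 of 22 (Hsd17b7, Sc5d, Dhcr7, Scap and Insig1), against 8.09% and 11.3%. The sterol regulatory element TCACNCCAC occurred in 1, Hmgcs1, from 137 to 129 bases before its start, against 1.44% and 1.56%. Other forms of the element were not searched, and a match of letters is not a bound site. Windows are shown for a gene with all of these motifs but the E-box (Hmgcs1), the gene that was called higher (Lbr) and a lower gene with an E-box (Insig1). Each is the stretch of up to 150 bases before the RefSeq start that lies outside annotated exons of the gene, 5′ to 3′ on the strand of the gene, with the motif letters in capitals.
Hmgcs1, chr13:119690201-119690350, plus strand: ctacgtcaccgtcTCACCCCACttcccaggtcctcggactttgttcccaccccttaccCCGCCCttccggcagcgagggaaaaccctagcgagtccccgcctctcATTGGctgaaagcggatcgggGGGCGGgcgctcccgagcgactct
Lbr, chr1:181842402-181842551, minus strand: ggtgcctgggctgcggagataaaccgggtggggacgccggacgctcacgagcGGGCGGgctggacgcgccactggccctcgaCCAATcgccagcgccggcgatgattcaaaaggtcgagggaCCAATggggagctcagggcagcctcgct
Insig1, chr5:28071262-28071362, plus strand: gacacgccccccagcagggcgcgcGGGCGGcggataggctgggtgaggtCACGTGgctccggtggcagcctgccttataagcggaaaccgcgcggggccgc
The Hmgcs1 stretch holds the sterol regulatory element near its 5′ end, a GC box on each strand and a CCAAT box read on the opposite strand as ATTGG. The Lbr stretch holds a GC box and a pair of CCAAT boxes, and no E-box or sterol regulatory element of these letters. The Insig1 stretch holds a GC box and the E-box, and its CCAAT box lies further upstream.

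Further genes of sterol metabolism, in 6 lists drawn up from general knowledge, were read from the same fit. Of 68 tested genes in these lists, 9 were higher and 24 were lower, against 21.4% higher and 19.3% lower (40.7% called) among all genes tested. Among 12 genes of SREBP processing and INSIG partners, 1 was higher and 4 were lower, with a median log2 fold change of -0.10, so that the 5 calls among 12 genes were near the 40.7% over all genes. Srebf1, the paralogue of Srebf2, fell from 535, 432 and 578 CPM to 311, 264 and 257 CPM (log2 fold change -0.89, SE 0.148, edgeR adjusted p = 0.000860). The ratio of Srebf2 to Srebf1 in TPM was accordingly 0.277, 0.296 and 0.257 in undamaged liver and 0.473, 0.488 and 0.436 in regenerating liver. Pgrmc1, a membrane protein that binds INSIG and SCAP, had a log2 fold change of -0.82 (edgeR adjusted p = 0.00142).

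The exporters of sterols into bile were lower. In the list of LXR targets and sterol efflux, which also holds the LXR genes and the corepressor gene Ncor1, 0 of 11 genes were higher and 6 were lower (all genes, 21.4% and 19.3%). The median log2 fold change was -0.51. Abcg8 and Abcg5 encode the 2 subunits of the pump that secretes cholesterol into bile. Abcg8 measured 131, 194 and 131 CPM at 0 h and 34.8, 40.8 and 50.2 CPM at 48 h (log2 fold change -1.86, SE 0.187, edgeR adjusted p = 3.30e-05), and Abcg5 had a log2 fold change of -1.59 (adjusted p = 5.82e-05). Mylip, a ligase that degrades lipoprotein receptors, had a log2 fold change of -1.22 (adjusted p = 0.00282) and the phospholipid acyltransferase Lpcat3 one of -1.04 (adjusted p = 6.73e-05). Among 13 tested genes of sterol traffic and ester turnover, 3 were higher and 1 was lower, with a median of -0.06, a count of calls no larger in share than the 40.7% of all genes. Tmem97, which binds NPC1, was higher (log2 fold change 0.51, adjusted p = 0.00852), and the carrier Scp2 was lower (log2 fold change -0.54, adjusted p = 0.0136).

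In the non-sterol branch of the mevalonate route 4 of 13 genes were higher and 2 lower, with a median log2 fold change of 0.0050, and these 6 calls were near the 40.7% over all genes. Fntb, the farnesyltransferase beta subunit, rose from 5.65, 4.35 and 5.57 CPM to 12.5, 12.2 and 11.8 CPM (log2 fold change 1.22, SE 0.147, edgeR adjusted p = 0.000107). Dolichol kinase, Dolk, had a log2 fold change of -0.61 (adjusted p = 0.00180). Of 9 genes of acetyl-CoA supply and the ketone branch, 1 was higher and 5 were lower (all genes, 21.4% and 19.3%), with a median of -0.58. Acss2, which makes acetyl-CoA from acetate in the cytosol, fell from 256, 231 and 333 CPM to 142, 88.5 and 58.7 CPM (log2 fold change -1.50, SE 0.274, edgeR adjusted p = 0.00156). Aacs, which returns acetoacetate to lipid synthesis, had a log2 fold change of -1.14 (adjusted p = 0.000254). Oxct1, the ketone-using enzyme that hepatocytes hardly express, rose from 1.05, 1.42 and 0.904 CPM to 2.61, 2.57 and 3.51 CPM (log2 fold change 1.36, adjusted p = 0.00166).

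Targets of the sister factor SREBP1, which drives fatty acid synthesis, were mostly lower. Of 10 tested lipogenic genes, 0 were higher and 6 were lower (all genes, 21.4% and 19.3%), with a median log2 fold change of -0.91. Scd1, the stearoyl-CoA desaturase, fell from 9440, 11768 and 15061 CPM to 1331, 857 and 651 CPM (log2 fold change -3.68, SE 0.300, edgeR adjusted p = 7.43e-06). Thrsp, a lipogenic regulator, had a log2 fold change of -2.07 (adjusted p = 0.000319), and the elongase Elovl5 one of -1.26 (adjusted p = 0.000168). The order of the 48 h libraries seen in the synthesis enzymes was shown by 5 of these 10 genes, against 19.5% of all genes tested, and the orders at both time points by 3 of 10, against 9.47%.

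**Figure D5:**
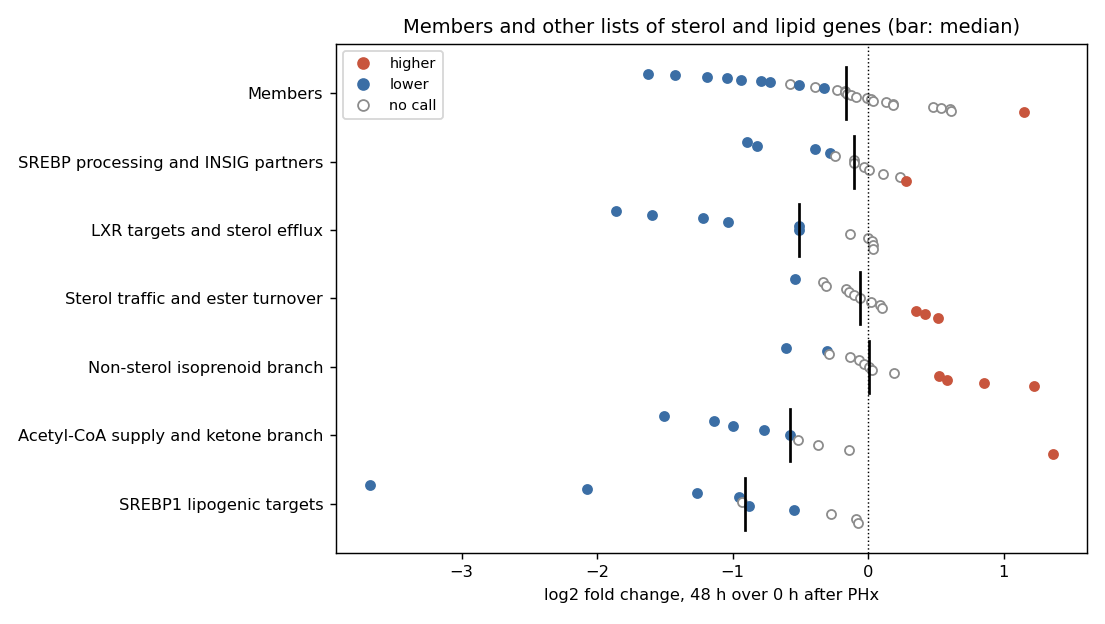
Log2 fold changes, 48 h over 0 h after PHx, of the 28 genes (top row) and of 6 other lists of sterol and lipid genes, with 1 point a gene and a bar at the list's median; filled points passed an edgeR adjusted p under 0.05. The lipogenic list has its median at -0.91 and reaches -3.68 (Scd1), and the 28 genes have theirs at -0.16.

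Cell type markers were read beside these results. Hepatocyte markers took 8.31% to 10.0% of gene counts at 0 h and 5.70% to 6.47% at 48 h, and 5 of the 10 were lower, 0 were higher and all were detected (all genes tested, 19.3% lower and 21.4% higher). Alb alone averaged 63550 of the 97426 CPM on these markers at 0 h and 35070 of 56615 CPM at 48 h. The 5 with no call were Hnf4a (log2 fold change 0.23), Cps1 (0.0099), Trf (-0.0051), Ass1 (-0.19) and Tat (-0.37). The 8 endothelial markers were all lower and took 0.0203% to 0.0324% at 0 h and 0.0155% to 0.0185% at 48 h. Of 9 Kupffer cell markers 2 were higher, near the 21.4% of all genes, with shares of 0.00721% to 0.0108% at 0 h and 0.0112% to 0.0148% at 48 h. Stellate cell, cholangiocyte, neutrophil and lymphocyte markers each took under 0.01% of gene counts in every library, and the neutrophil gene Ltf was at 0 counts in all of them. Of those tested, the stellate cell marker Col1a1 was higher (log2 fold change 2.30) and Reln lower (-0.82). The cholangiocyte marker Spp1 was higher (1.51), although its groups overlapped and 18.75% of its exon length is shared with a gene on the same strand (Gm42793). Sox9, the other cholangiocyte marker tested, gave no call (0.41, edgeR adjusted p = 0.249). For each of the 4 lists whose groups did not overlap (hepatocyte, endothelial, Kupffer cell and neutrophil), the two-sided exact permutation test gave p = 0.1, which is the lowest value possible with 3 libraries a group. The part of these shifts in the changes of the sterol genes was not tested. From marker shares in bulk libraries, fewer cells of a type and less marker RNA per cell cannot be told apart. The paper, by deconvolution of its bulk RNA-Seq data with published cell signatures, reported nearly all cells of each replicate to be hepatocytes at both time points.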

How the data were processed

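The authors deposited, for each of 6 libraries, raw read counts per gene without normalization. Per the labels, the submitters' processing notes name FastQC 0.11.5, Trim Galore 0.6.4, STAR 2.6, HTSeq 0.12.4, DESeq2 and build mm10. The counting mode and strand setting are not given in the sources used here, so reads of overlapping or antisense genes could not be separated. Multiply aligned reads are listed as 0.

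Names and coordinates came from GENCODE M21 (GRCm38) by identifier. Genes reaching 10 counts in 3 or more libraries were tested with edgeR 4.0.16 (R 4.3.3; TMM, glmQLFit and glmQLFTest, time as the only term), with Benjamini-Hochberg adjustment over all 17037 genes and a threshold of 0.05. The script was tested on simulated data. Marker shares were compared by exact permutation tests. Alternatives were DESeq2 1.42.0, limma-voom 3.58.1, other scalings, other filters, a log2 fold change threshold, a replicate block and leaving out each library. Counts of 3 correspond to 0.0839 to 0.102 CPM, a floor that covers counting error only.

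The text names all 28 genes and, in each other pathway list, genes with an adjusted p under 0.05 whose log2 fold change was 1 or more in size, or the 2 with the lowest p where fewer met this. Acat1, Soat1 and Srebf1 were also named as paralogues of listed genes, after values were seen. The genes and lists were chosen with earlier results of these data known. Some pathway genes are not reported here.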

Additional observations from a re-analysis of the deposited data

How the results depend on the processing

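The calls of Tm7sf2, Lbr, Scap, Insig2 and Soat2 kept their direction and stayed past the threshold in all 16 alternative fits, and the other calls were lost in 1 to 5 of them. The 1 higher gene of the 28 became 3 with library size as the only scaling, 4 without a filter on low counts and 1 to 4 when single libraries were left out. The 9 lower genes became 6 with library size as the only scaling and 5 to 11 when single libraries were left out. They became 4 when a log2 fold change of 1 or more in size was asked for too (Tm7sf2, Insig1, Insig2 and Soat2, with Scap among those lost). In the other pathway lists, 2 genes were higher and 9 lower with that fold threshold, and 12 were higher and 17 lower with library size as the only scaling. When single libraries were left out, 6 to 7 were higher and 20 to 26 lower. Acat2 and Idi1 passed the test with library size only, and Acat2, Hmgcs1, Idi1 and Mvd passed it without the filter. Ggps1 passed it with upper quartile factors and with TMM from protein-coding genes only.

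Library size as the only scaling moved the median log2 fold change of all genes from -0.0033 to 0.20 and the calls from 3638 higher and 3288 lower to 5308 and 2110. Under it, uncalled genes turned direction to 0.013 for Pmvk, 0.10 for Fdft1, 0.036 for Msmo1, 0.18 for Hsd17b7, 0.066 for Srebf2 and 0.026 for Stard4. Sqle turned to -0.066 with upper quartile factors, -0.033 with TMM from protein-coding genes and -0.014 with limma-voom, and Dhcr7 to -0.045 and -0.012 with the first 2 of these. When single libraries were left out, log2 fold changes ranged from 0.24 to 0.75 for Acat2, 0.088 to 0.89 for Hmgcs1, 0.21 to 0.86 for Idi1, -1.06 to -0.33 for Mvd, -0.22 to 0.37 for Mvk, -0.68 to 0.13 for Pmvk, -0.37 to 0.11 for Fdft1, -0.26 to 0.19 for Sqle, -0.19 to 0.81 for Lss, -0.047 to 0.36 for Cyp51, -0.47 to 0.086 for Msmo1, -0.021 to 0.36 for Nsdhl, -0.33 to 0.17 for Hsd17b7 and -0.25 to 0.23 for Dhcr7. The cause was not tested. The 31 changes of direction were all of genes with no call.

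Replicate numbers are shared between the time points, but the mice differ, and libraries of the same number, each taken relative to its group mean, correlated at 0.0335, -0.0674 and -0.138 over genes, so the numbers do not pair the libraries. With a replicate block 1 of the 28 genes was higher and 8 were lower, Sqle stood at -0.014, and 6 genes of the other lists were higher and 23 lower. With 3 libraries a group, a missed threshold does not show equal levels, least of all for the enzymes with the widest spread at 48 h.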
